A study of Mus musculus with 8 samples.

Results

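MHC class II and macrophage genes were followed in sensory neurons sorted from dorsal root ganglia (DRG) of the mouse. The group held 10 of the 22609 gene symbols in the count tables: Cd74, H2-Aa, H2-Ab1 and H2-Eb1 of the class II pathway, and Csf1r, Aif1, C1qa, Ctss, Lyz2 and Cd68 as macrophage genes. Rows were taken by symbol, but the list was chosen by someone who knew its female over male difference in these same libraries, and Cd74 had been selected on that difference by the study. The difference between the sexes is therefore given for these 10 genes as a description. Counts of how many passed a threshold are printed beside the share of all tested genes that did, and no p-value of these genes is given.

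The libraries came from naive young adult C57BL/6J mice, 4 females in the estrous phase and 4 males, with no other treatment than the tracer. The tracer, the green fluorescent lectin WGA-488, was given in the hindpaws and thighs of both sides, and labelled cells were later sorted by flow cytometry from dissociated lumbar DRG. The methods name a viability stain and the tracer as the criteria of the sort and no surface marker of leukocytes or glia, so other cells that carried the label could pass it. In bulk samples of this kind, fewer cells of a type and less RNA per cell cannot be told apart.

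MHC class II molecules present peptides from endocytosed proteins to helper T cells. They are heterodimers of an alpha and a beta chain, which assemble in the endoplasmic reticulum on the invariant chain, Cd74, and receive their peptide in an endosomal compartment after proteases such as cathepsin S (Ctss) have degraded that chain. Professional antigen-presenting cells, among them macrophages, make these proteins constantly, under the coactivator Ciita, and other cells can be brought to make them by interferon gamma. In the DRG, resident macrophages lie close to the neuronal cell bodies.

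Class II genes share a promoter module in which an X box, bound by RFX proteins, precedes a Y box, bound by NF-Y. The promoters of H2-Aa and H2-Eb1 are shown because these 2 genes carry that module. H2-Eb1 had the most reads of the 10 genes, 238, and H2-Aa the fewest of the class II genes, 92. Both sequences are from RefSeq (build GRCm38.p6) and cover the 150 bases before the transcription start, 5′ to 3′ on the gene's strand. H2-Aa lies at chr17:34287824-34287973 on the minus strand, and H2-Eb1 at chr17:34305717-34305866 on the plus strand. Capitals mark 2 short stretches, GCAACT within the X box and GATTGG, the Y box.
H2-Aa: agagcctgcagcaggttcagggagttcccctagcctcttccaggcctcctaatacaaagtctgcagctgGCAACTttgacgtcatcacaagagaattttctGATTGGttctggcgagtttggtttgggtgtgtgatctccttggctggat
H2-Eb1: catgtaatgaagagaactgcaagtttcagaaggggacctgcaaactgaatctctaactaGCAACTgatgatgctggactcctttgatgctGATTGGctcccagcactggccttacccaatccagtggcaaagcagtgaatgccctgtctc

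In H2-Aa the stretches were 26 bases apart and in H2-Eb1 25. The letters were picked after both promoters had been read. On either strand, GCAACT occurred in 5.39% and GATTGG in 10.9% of 32851 promoters in windows of the same length. Both in this order, with 20 to 30 bases between them, occurred in 14 promoters (0.0426%), those of H2-Aa, H2-Eb1 and H2-Eb2, another class II gene, among them. Promoter entries were used for 6 of the 10 genes. Those of Cd74, H2-Ab1, Csf1r and C1qa were not examined, so whether they hold the pair is not known here. Of the 4 examined besides H2-Aa and H2-Eb1, Cd68 held GATTGG alone, and Aif1, Ctss and Lyz2 held neither.

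Depth ranged from 4.80 to 7.33 M gene reads per library (M, 1e6 reads). Levels are given as counts per 1e6 gene reads (CPM), and 3 reads, taken as the smallest level a library can show, stood for 0.409 to 0.625 CPM. This floor covers counting error only, since PCR copies cannot be told from separate molecules. Female replicate 4 stood apart from the other females, with a chi-square per degree of freedom of 30.1 to 44.9 against them and 2.82 to 12.1 between all other pairs of libraries of one sex. Where it moved a printed ratio or fold change by over 1.5 times, the value without it is given. It also set the upper end of several marker sums, for which the range of the other females is printed. Coordinates below are of build mm9.

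The 4 class II genes were above the floor in every female library, and in males H2-Aa was close to it, as were 5 of the 6 macrophage genes in both sexes. More than 3 reads in all 8 libraries were found for 3 genes, H2-Eb1, H2-Ab1 and Lyz2. Cd74 exceeded 3 reads in 7 libraries and H2-Aa in 6, whereas Csf1r and Aif1 did so in 3, C1qa and Ctss in 2 and Cd68 in 1. Over all libraries, H2-Eb1 had 238 reads and Cd68 15.

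**Figure D1:**
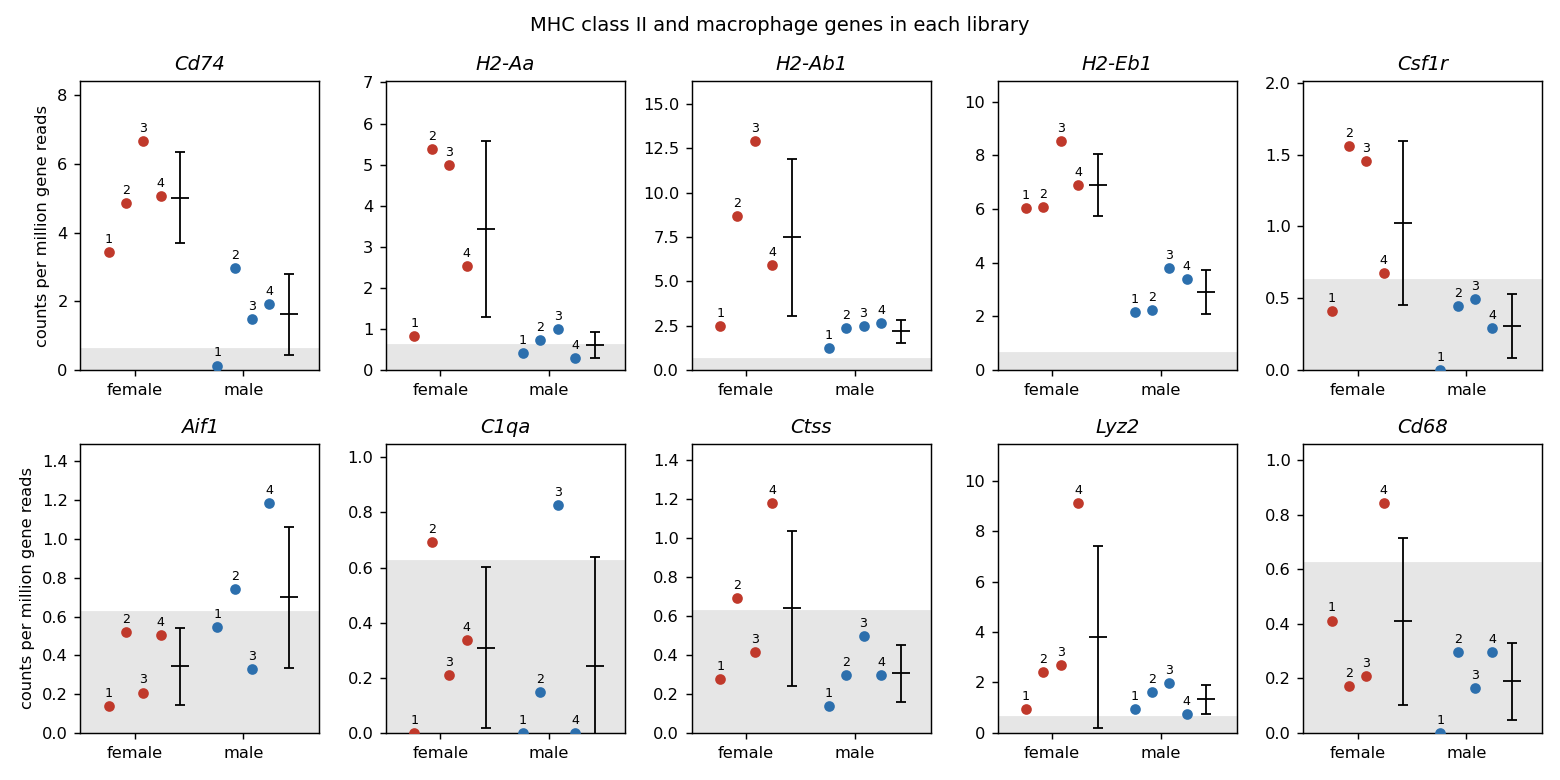
Level of each gene in each library, in CPM, with the replicate number beside each point. Black bars show the mean and SD (n = 4, cut off at 0), and grey marks levels up to 0.625 CPM, the highest floor of 3 reads; the female libraries lie above the male ones without overlap for Cd74 and H2-Eb1 alone.

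Cd74, the invariant chain (chromosome 18, 60963502 to 60972300), chaperones newly made class II dimers and is also a surface receptor for the cytokine Mif. It was at 3.44, 4.86, 6.67 and 5.05 CPM in female replicates 1 to 4 and at 0.136, 2.97, 1.49 and 1.92 CPM in male replicates 1 to 4. The sexes did not overlap, and male replicate 1, with a single read, was far below the other males. The means were 5.00 ± 1.32 CPM in females and 1.63 ± 1.17 CPM in males (SD, n = 4). edgeR estimated the log2 fold change at 1.59 ± 0.51 (SE). Without male replicate 1 the ratio of the means fell from 3.07 to 2.35. The study also reported Cd74 as higher in females in other preparations of DRG and trigeminal neurons and by RT-PCR, data not used here.

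H2-Eb1, a class II beta chain (chromosome 17, 34442828 to 34453144), had the smallest SD relative to its mean in both sexes. It was at 6.05, 6.07, 8.54 and 6.91 CPM in female replicates 1 to 4 and at 2.18, 2.23, 3.80 and 3.40 CPM in male replicates 1 to 4. Every female library lay above every male library. The means were 6.89 ± 1.17 CPM in females and 2.90 ± 0.821 CPM in males (SD, n = 4). The edgeR estimate of the log2 fold change was 1.23 ± 0.26 (SE). The alpha chain that pairs with it is encoded by H2-Ea-ps (chromosome 17, 34478897 to 34481589), which is defective in C57BL/6 mice. H2-Ea-ps had 0 reads in all 8 libraries, which allows up to 0.409 to 0.625 CPM.

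H2-Ab1, the beta chain of the I-A molecule (chromosome 17, 34400154 to 34406363), had the widest range among the class II genes. Its levels were 2.47, 8.68, 12.9 and 5.90 CPM in female replicates 1 to 4 and 1.23, 2.38, 2.48 and 2.66 CPM in male replicates 1 to 4. Female replicate 1 lay among the males, and the other females were above all of them. The means were 7.49 ± 4.42 CPM in females and 2.19 ± 0.650 CPM in males (SD, n = 4), and edgeR put the log2 fold change at 1.74 ± 0.47 (SE).

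H2-Aa, the alpha chain of I-A (chromosome 17, 34406276 to 34424772), repeated the order of H2-Ab1 in females only in part. It was at 0.825, 5.38, 5.00 and 2.53 CPM in female replicates 1 to 4, and at 0.409, 0.743, 0.991 and 0.296 CPM in male replicates 1 to 4. Female replicates 2 to 4 were above all males, while female replicate 1, with 6 reads, lay between male replicates 2 and 3. H2-Aa did not pass the expression filter, so no fold change was fitted. The mean was 3.43 ± 2.15 CPM in females and 0.610 ± 0.317 CPM in males (SD, n = 4). H2-Aa and H2-Ab1 lie tail to tail and share 17 exon bases on opposite strands, and whether reads were counted by strand is not given in the sources used here.

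Summed over the 4 class II genes, the libraries held 12.8, 25.0, 33.1 and 20.4 CPM in female replicates 1 to 4 and 3.96, 8.32, 8.75 and 8.28 CPM in male replicates 1 to 4. All females were above all males, and each sex had a library below its others, female replicate 1 and male replicate 1. The sum averaged 22.8 ± 8.52 CPM in females and 7.33 ± 2.26 CPM in males (SD, n = 4), a ratio of 3.11. The ratio was 3.23 without female replicate 4, 3.57 without female replicate 1 and 2.70 without male replicate 1.

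Among the macrophage genes, Lyz2, which encodes lysozyme of macrophages and granulocytes (chromosome 10, 116714390 to 116719377), was the only one with more than 3 reads in every library. It was at 0.962, 2.43, 2.71 and 9.10 CPM in female replicates 1 to 4 and at 0.955, 1.63, 1.98 and 0.740 CPM in male replicates 1 to 4. Female replicate 4 alone was far above the rest, and the other females overlapped the males. The means were 3.80 ± 3.61 CPM in females and 1.33 ± 0.579 CPM in males (SD, n = 4). edgeR gave a log2 fold change of 1.49 ± 0.63 (SE), and 0.56 without female replicate 4. In the same library the granulocyte genes S100a8, S100a9, Mpo and Elane had 145, 74, 59 and 17 reads, and Pf4, a platelet gene, had 11. Elane and Pf4 had 0 reads in the other 7 libraries, and the part of such cells in the Lyz2 level was not tested. Lyz2 has a near-identical neighbour, Lyz1, with 0 to 4 reads per library, and reads that aligned to both would not have been counted, so its level is uncertain.

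Csf1r, the receptor that macrophages need for survival (chromosome 18, 61265226 to 61291803), had 3, 9, 7 and 4 reads in female replicates 1 to 4 and 0, 3, 3 and 2 reads in male replicates 1 to 4. The sexes overlapped at 3 reads. It shares 871 exon bases with Hmgxb3 on the other strand, which had 2247 reads over the libraries, so some of these few reads may belong to that gene. Aif1, the calcium-binding protein IBA1 (chromosome 17, 35307936 to 35313013), was the only one of the 10 genes with the higher mean in males. Its 4 female libraries had 1 to 3 reads each and its male libraries 2 to 8.

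C1qa, a chain of complement C1q (chromosome 4, 136451832 to 136454718), had at most 4 reads in any female library and 5 in any male library. Ctss, the protease that trims the invariant chain (chromosome 3, 95330708 to 95360325), had between 2 and 7 reads per library among females, and between 1 and 3 among males. Cd68, a lysosomal membrane glycoprotein of phagocytes (chromosome 11, 69477715 to 69479655), had 1 to 5 and 0 to 2 reads. At such counts a difference between the sexes was not detectable at this depth for these 3 genes.

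Summed over the 6 macrophage genes, female replicates 1 to 4 held 2.20, 6.07, 5.21 and 12.6 CPM and male replicates 1 to 4 held 1.64, 3.56, 4.29 and 2.81 CPM. The sexes overlapped. The sum averaged 6.53 ± 4.40 CPM in females and 3.08 ± 1.13 CPM in males (SD, n = 4), a ratio of 2.12 that was 1.46 without female replicate 4 and 1.22 when the log2(CPM + 1) values of the 6 genes were averaged instead. With Lyz2 left out, the sum was 2.73 ± 1.12 CPM in females and 1.75 ± 0.728 CPM in males (SD, n = 4). Between 1.61 and 6.36 class II reads were counted for each macrophage read, the lowest value in female replicate 4 and the next lowest in male replicate 3, at 2.04.

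Levels of different genes were compared per kilobase of exon, over all 8 libraries. The order was H2-Eb1 with a mean of 4.12 CPM per kb, H2-Ab1 with 2.94, Cd74 with 2.35, Lyz2 with 1.95 and H2-Aa with 1.02, followed by Ctss, Aif1, C1qa, Cd68 and Csf1r, between 0.349 and 0.128. Within a sex the lower part of the order changed. In females Cd68 and C1qa were above Aif1, and in males Aif1 was above H2-Aa and C1qa above Ctss. Neighbours in the order over all libraries mostly did not differ beyond their spread. H2-Eb1 exceeded H2-Ab1 in 6 of 8 libraries and H2-Ab1 exceeded Cd74 in 6 of 8. The step from H2-Aa to Ctss was the most regular, with H2-Aa higher in 7 of 8 libraries. The class II genes and Lyz2 have the higher means over both sexes, but in males Aif1, at 0.457 CPM per kb, was above H2-Aa, at 0.307. In the plot of levels per length, single libraries of H2-Aa, H2-Ab1, Cd74 and Lyz2 reach down into the range of the other 5 genes.

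**Figure D2:**
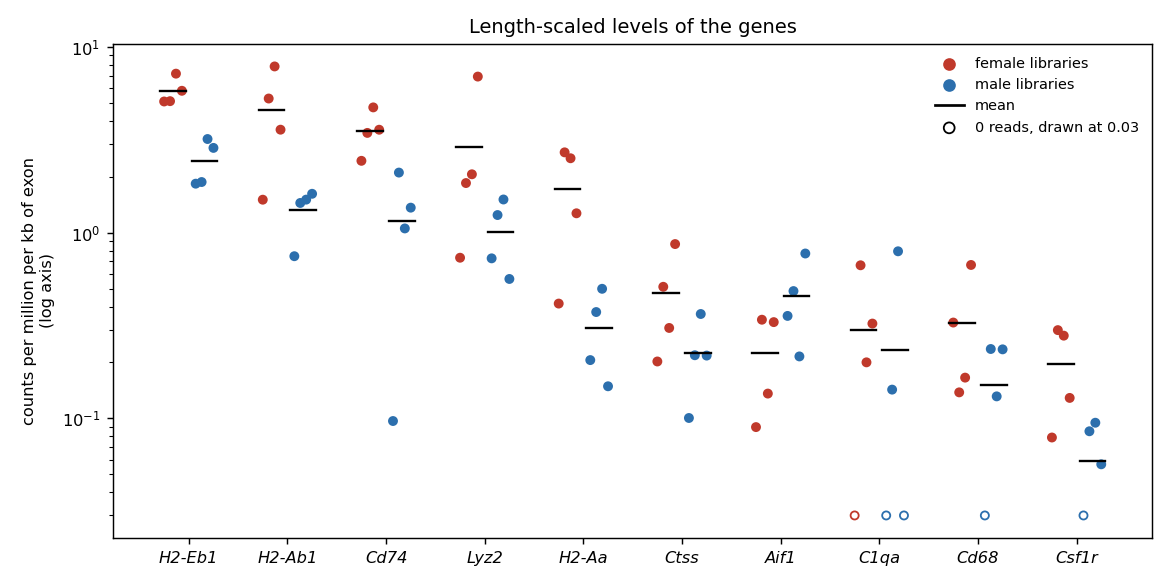
Level per kilobase of exon of each gene in each library, on a log axis, with genes ordered by their mean over 8 libraries. Bars are the mean of each sex, and open circles at 0.03 stand for libraries with 0 reads; H2-Eb1, at 4.12 CPM per kb on average, is the highest and Csf1r, at 0.128, the lowest.

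Of the 10 genes, 4 passed the expression filter (at least 1.56 CPM in 4 libraries): Cd74, H2-Ab1, H2-Eb1 and Lyz2. Lyz2 passed with 3 female and 2 male libraries above that level, Cd74 with 4 and 2, H2-Ab1 with 4 and 3 and H2-Eb1 with all 8. All 4 were higher in females with an unadjusted edgeR p-value under 0.05, which held for 4.62% of the 12518 tested genes. The sexes did not overlap in 2 of the 4, with females higher, as in 3% of all tested genes. After Benjamini-Hochberg adjustment over all tested genes, none of the 4 passed 0.05 in edgeR, a threshold that 0.0879% of all genes passed in either direction. With DESeq2 1 of the 4 passed it, H2-Eb1, beside 48 of all 12518 genes. With limma-voom none of the 4 passed it, beside 10 of 12518 genes. There 3 of the 4 were higher in females with an unadjusted p-value under 0.05, beside 499 of 12518 genes. Without female replicate 1, edgeR passed H2-Aa and H2-Ab1 of the 5 then tested, beside 84 of 12573 genes in either direction. The median log2 fold change of the 4 was 1.54, beside 0.01 over all tested genes. Because the list was chosen with this difference known and low genes enter the filter through their higher sex, nothing is read from these counts.

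Several defining markers of macrophages outside the list were at or near 0, others were detected at low levels, and Ly86 was far higher. In the list of 28 other macrophage genes, Trem2 and Fcgr1 had 0 reads in all libraries, Sfpi1, the myeloid transcription factor PU.1, had 1 read in all and Ptprc, the pan-leukocyte surface protein CD45, had 2. No more than 3 reads in any library were found for 7 of the 28 genes. Emr1, the F4/80 antigen, had 11 reads in all, Cx3cr1, the fractalkine receptor, 14 and Tyrobp, a signalling adaptor, 13, of which 7 were in female replicate 4. C1qb (chromosome 4, 136436044 to 136442102) was at 1.94 ± 1.06 CPM in females and 2.13 ± 0.966 CPM in males (SD, n = 4), and C1qc, which forms C1q with C1qa and C1qb, had 0 to 5 reads per library. More than 3 reads in every library were found for 5 of the 28 genes, C1qb, Laptm5, Lyve1, Mertk and Ly86. Laptm5, a lysosomal membrane protein of blood cells, had 110 reads in all, Cd14, a co-receptor for lipopolysaccharide, 69 and Mrc1, the mannose receptor, 50 (these 3 genes were named after their values were seen). Ly86, the secreted partner of the Toll-like protein RP105 (chromosome 13, 37437214 to 37510905), held 96.2% of the reads of this list and was at 417 ± 82.1 CPM in females and 589.8 ± 117 CPM in males (SD, n = 4). Which cells gave the Ly86 reads was not tested.

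For Ly86 every male library lay above every female library, as in 2.52% of all tested genes. Its log2 fold change was -0.52 ± 0.18 (SE; edgeR adjusted p-value 0.630). Of the 28 genes, 6 were tested, and none passed after adjustment. Lyve1, a hyaluronan receptor of some resident macrophages and of lymphatic endothelium, had a log2 fold change of -0.54 ± 0.24 (SE; edgeR adjusted p-value 0.690). Mertk, a receptor for apoptotic cells that glia also express, was at 5.62 ± 2.01 CPM in females and 3.46 ± 1.71 CPM in males (SD, n = 4; edgeR adjusted p-value 0.748).

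The other genes of class II presentation were then described from lists drawn up by function. Over 7 such lists, 105 genes were in the files and 68 were tested. At an unadjusted edgeR p-value under 0.05, 7 (10.3%) were higher in females and 4 (5.88%) lower, where all tested genes gave 4.62% and 2.48%. These counts rest on single libraries: without female replicate 4 they were 11 and 8, without male replicate 1 they were 2 and 2, without female replicate 3 they were 4 and 2, and without male replicate 4 they were 3 and 3. Over all tested genes, 578 were higher and 311 lower in females, and 725 and 728 without female replicate 4. None of the 68 passed after adjustment over all genes, the lowest edgeR adjusted p-value being 0.482, and none passed in DESeq2 or limma-voom. Their median log2 fold change was 0.10.

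**Figure D3:**
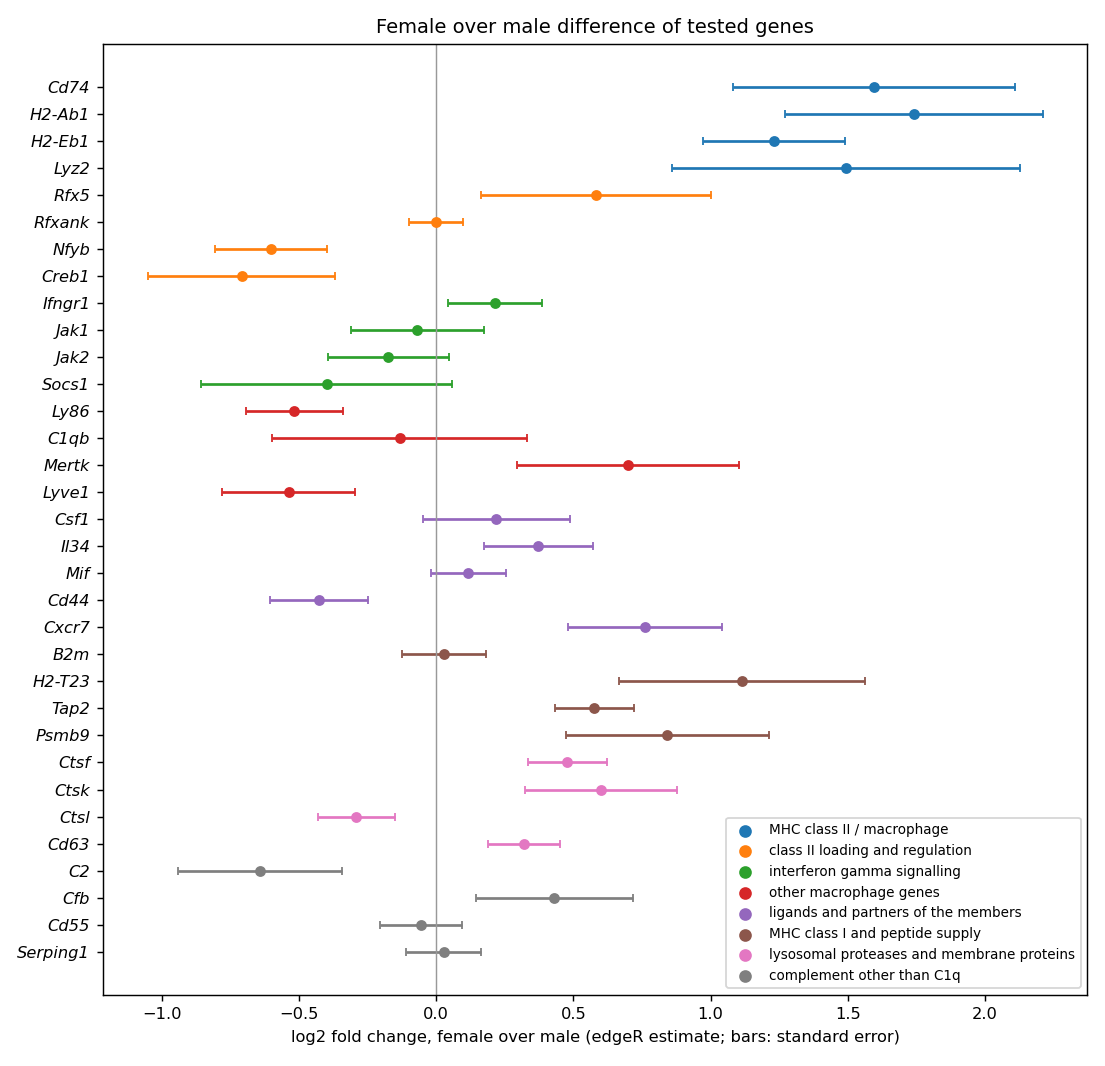
Log2 fold change of females over males (edgeR estimate, x axis) with its standard error for the 4 class II and macrophage genes that were tested and for the tested genes named in each related list. The 4 genes lie between 1.23 and 1.74, and the related genes between -0.71 and 1.11.

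Among the genes of class II loading and regulation, none passed after adjustment. Ciita, the coactivator of class II transcription (chromosome 16, 10480237 to 10527657), was not tested, with 4 to 9 reads in each female library and 2 to 8 in each male library. H2-DMa, which with its beta chain exchanges the invariant chain peptide for antigen, ranged from 30 to 38 reads among females and from 27 to 46 among males. Its partner gene H2-DMb1 had 1 to 8 and 0 to 3 reads. Of 17 genes in this list 9 were tested, and 1 was lower in females with an unadjusted p-value under 0.05, as were 2.48% of all tested genes. Nfyb, a subunit of the Y box factor NF-Y (chromosome 10, 82211446 to 82226889), was at 15.3 ± 2.09 CPM in females and 23.1 ± 5.72 CPM in males (SD, n = 4), which gave a difference of -0.60 ± 0.20 on the log2 scale (SE; edgeR adjusted p-value 0.630). Creb1, which binds beside the X box, had a log2 fold change of -0.71 ± 0.34 (SE; edgeR adjusted p-value 0.711) and Rfx5, the DNA-binding RFX subunit, one of 0.58 ± 0.42 (SE; 0.791). Rfxank, the highest of the list per length, differed by 0.00 ± 0.10 (SE; edgeR adjusted p-value 0.997).

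Interferon gamma signalling was measured through 7 genes, all tested, and none had an unadjusted edgeR p-value under 0.05. The receptor chain Ifngr1 was at 46.3 ± 6.77 CPM in females and 39.5 ± 8.25 CPM in males (SD, n = 4). Jak1, the kinase with the highest level per length in this list, was at 343 ± 119 CPM in females and 357 ± 29.4 CPM in males (SD, n = 4). Female replicate 4 was at 167 CPM for Jak1 and the other females at 372 to 421 CPM. Jak2 and the feedback inhibitor Socs1 had log2 fold changes of -0.18 ± 0.22 and -0.40 ± 0.46 (SE).

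MHC class I genes and their peptide supply summed to 3032 to 3297 CPM in females and 3069 to 3446 CPM in males, and B2m, the light chain, was at 426 ± 52.5 CPM in females and 415 ± 85.8 CPM in males (SD, n = 4). All 17 genes of class I and its peptide supply were tested, and 4 were higher in females with an unadjusted p-value under 0.05, as were 4.62% of all tested genes. Tap2, a subunit of the peptide transporter (chromosome 17, 34340472 to 34353266), was at 70.6 ± 10.4 CPM in females and 46.9 ± 5.27 CPM in males (SD, n = 4), without overlap. Its log2 fold change was 0.58 ± 0.14 (SE; edgeR adjusted p-value 0.482). H2-T23, the non-classical class I gene for Qa-1 (chromosome 17, 36166718 to 36169800), had 54, 128, 144 and 41 reads in female replicates 1 to 4 and 37 to 64 in the male libraries. As for H2-Ab1 and H2-Aa, female replicates 2 and 3 were the highest libraries. Its log2 fold change was 1.11 ± 0.45 (SE; edgeR adjusted p-value 0.653). Psmb9, an immunoproteasome subunit, had 36, 70, 52 and 25 reads in female replicates 1 to 4 and 22 to 42 in males, with a log2 fold change of 0.84 ± 0.37 (SE; edgeR adjusted p-value 0.690). Tap1, named here after its values were seen, was the other of the 4, with a log2 fold change of 0.74 ± 0.33 (SE; edgeR adjusted p-value 0.690).

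Most ligands and partners of the 10 genes were detected in both sexes. Csf1 and Il34, both ligands of Csf1r, were at 12.1 ± 3.63 and 23.4 ± 4.30 CPM in females and 10.3 ± 2.68 and 17.96 ± 3.90 CPM in males (SD, n = 4), with edgeR adjusted p-values of 0.854 and 0.733. Mif, the ligand of Cd74, was at 61.4 ± 10.6 CPM in females and 56.1 ± 3.57 CPM in males (SD, n = 4; edgeR adjusted p-value 0.845). Cd44, the signalling partner of Cd74 at the cell surface, was at 439 ± 98.4 CPM in females and 584 ± 104 CPM in males (SD, n = 4), a difference of -0.43 ± 0.18 on the log2 scale (SE; edgeR adjusted p-value 0.684). Cxcr7, a chemokine receptor that also binds Mif, had a log2 fold change of 0.76 ± 0.28 (SE; edgeR adjusted p-value 0.644). Of the 8 genes 7 were tested, and none passed after adjustment.

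Of 17 lysosomal genes other than Ctss and Cd68, 16 passed the expression filter, and Ctsh, with 25 reads in all, did not. Most cells, neurons and glia included, use these proteins. Ctsl, the cathepsin with the highest level per length, was at 1404 ± 240.0 CPM in females and 1699 ± 236 CPM in males (SD, n = 4). It differed by -0.29 ± 0.14 on the log2 scale (SE; edgeR adjusted p-value 0.712). Ctsf was at 92.8 ± 16.5 CPM in females and 65.95 ± 6.60 CPM in males (SD, n = 4), without overlap, and had an edgeR adjusted p-value of 0.613. Cd63, a lysosomal tetraspanin, did not overlap either, at 57.3 ± 6.53 and 45.5 ± 5.30 CPM (SD, n = 4; edgeR adjusted p-value 0.681). Lamp2, a lysosomal membrane protein named here after its values were seen, had every male library above every female library, at 375.5 ± 69.4 CPM in females and 453 ± 22.1 CPM in males (SD, n = 4; edgeR adjusted p-value 0.716). Ctsk had a log2 fold change of 0.60 ± 0.28 (SE; edgeR adjusted p-value 0.690). Of 16 tested genes of this list, none passed after adjustment.

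Complement genes other than C1q gave 6 tested genes, none with an unadjusted p-value under 0.05. The inhibitors Serping1 and Cd55 were at 235 ± 40.7 and 473 ± 101 CPM in females and 228 ± 20.9 and 486 ± 42.5 CPM in males (SD, n = 4). C2 and Cfb, which encode homologous proteases of the classical and the alternative pathway, had log2 fold changes of -0.64 ± 0.30 and 0.43 ± 0.29 (SE).

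Markers of other cell types were summed in each library to set beside these levels. T and NK cell markers reached 1.37 to 3.12 CPM in females and 2.07 to 3.82 CPM in males, with Cd3d, Cd3g, Cd8a and Ncr1 at 0 reads, and B cell markers 0.208 to 1.68 and 0.148 to 0.819 CPM (0.208 to 0.962 CPM in females without replicate 4). Dendritic cell markers summed to 20.6 to 33.1 and 20.9 to 32.4 CPM, mostly from Flt3, with Xcr1 and Cd209a at 0 reads. Granulocyte and mast cell markers stood at 50.5 CPM in female replicate 4 and at 1.10 to 3.12 CPM in the other females, against 0.891 to 7.09 CPM in males, and Mcpt4 and Fcer1a had 0 reads. Endothelial markers stood at 17.0 CPM in female replicate 4, at 3.33 to 6.59 CPM in the other females and at 3.41 to 7.40 CPM in males, so that the ratio of the means was 1.74 with that library and 1.10 without it. The haemoglobin genes Hba-a1, Hba-a2, Hbb-b1 and Hbb-b2 had 0 reads in all libraries, and Alas2 had 22 in female replicate 4 and 1 to 3 elsewhere. Reads that aligned to several places were not counted (8.57 to 13.3 M alignments per library), and these haemoglobin genes are close copies in pairs. Their 0 reads are therefore uncertain.

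Satellite glia and fibroblast markers separated the sexes as the class II sum did, but ordered the female libraries differently. The 7 satellite glia markers, led by Apoe, summed to 9248 to 12239 CPM in females and 3700 to 8987 CPM in males. The 6 fibroblast markers, led by Dcn, summed to 76.2 to 123 CPM in females (76.2 to 97.2 CPM without replicate 4) and 40.1 to 69.0 CPM in males. In both lists, as in the class II sum, every female library lay above every male library and male replicate 1 was the lowest. Among females, fibroblast markers were lowest in replicate 3, at 76.2 CPM, where the class II sum was highest, and satellite glia markers were highest in replicate 4. Apoe was the only one of the 7 satellite glia markers without overlap between the sexes. Schwann cell markers, led by Pmp22, summed to 1928 to 2505 CPM in females and 1687 to 1990 CPM in males, with overlap. Neuronal markers, of which Tubb3 was the highest per kilobase, summed to 21726 to 29746 CPM in females and 22348 to 24334 CPM in males. Without female replicate 4 the female ranges were 1928 to 2205 CPM for Schwann cell markers and 21726 to 24270 CPM for neuronal markers. The part of these cells in the class II level was not tested.

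**Figure D4:**
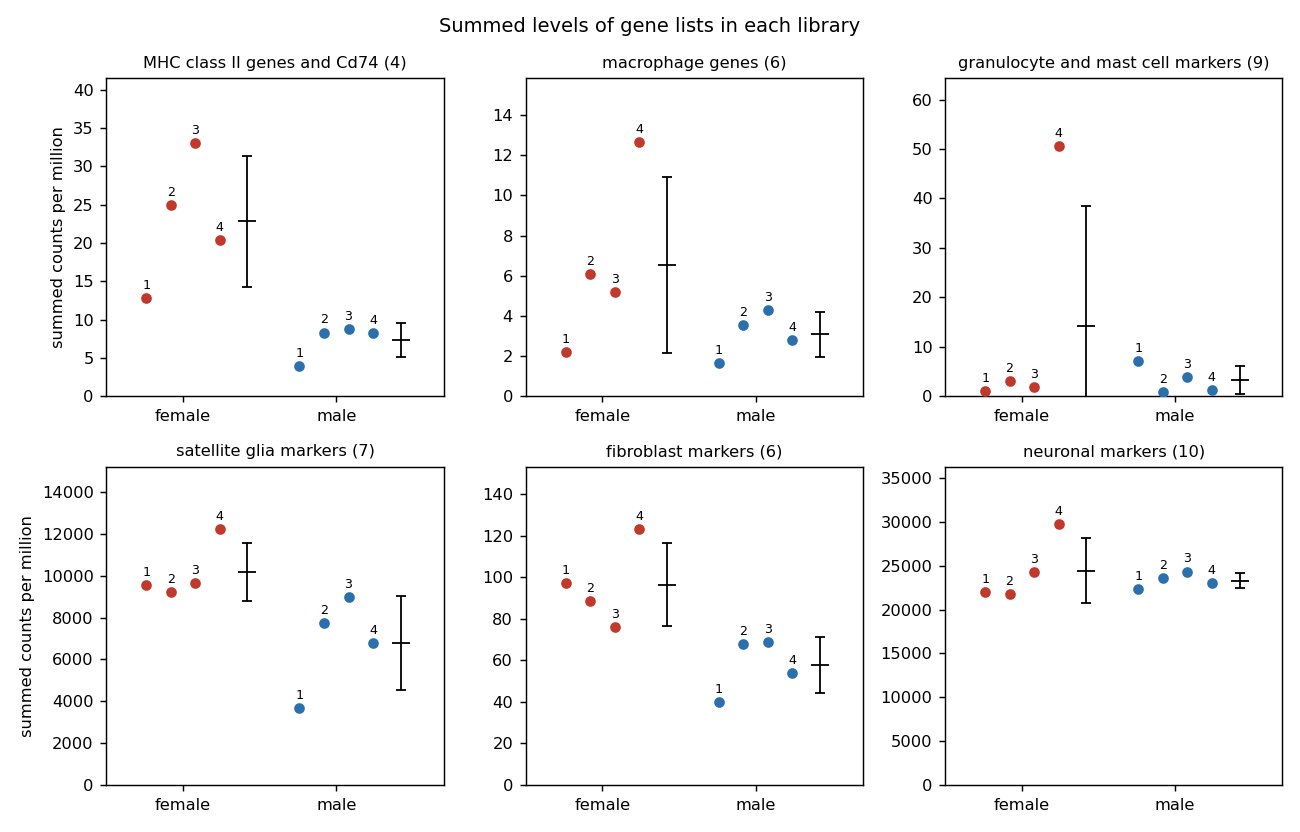
Summed level of 6 gene lists in each library, in CPM, with the replicate number beside each point and the mean and SD (n = 4) in black, cut off at 0; the number of genes is in each title. Class II genes, satellite glia markers and fibroblast markers are higher in all females than in any male, and female replicate 4 stands apart for granulocyte markers at 50.5 CPM.

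The genes with the library profile most like the class II sum were sought among 12514 other tested genes. Likeness was the root mean square distance between log2(CPM + 1) values over the 8 libraries, each centred on its own mean. The nearest genes were Sox10, a transcription factor of glia, at a distance of 0.226, Nefh, the heavy neurofilament of large myelinated neurons, at 0.254, and Notch1 at 0.267, where the class II profile itself had a root mean square of 0.867. Metrnl and Rell2 followed at 0.280 and 0.330. Sox10 was at 31.2, 79.3, 105 and 77.2 CPM in female replicates 1 to 4 and at 11.2, 21.7, 31.5 and 28.7 CPM in male replicates 1 to 4. Like the class II sum, it was lowest in replicate 1 of each sex and highest in female replicate 3. For the macrophage sum, highest in female replicate 4, the nearest were Sart1 at 0.283, Angptl4 at 0.300, Aldh1a1 at 0.307, Exosc6 at 0.314 and Coq2 at 0.318. These genes were picked as the nearest of all, so the distances are a description.

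**Figure D5:**
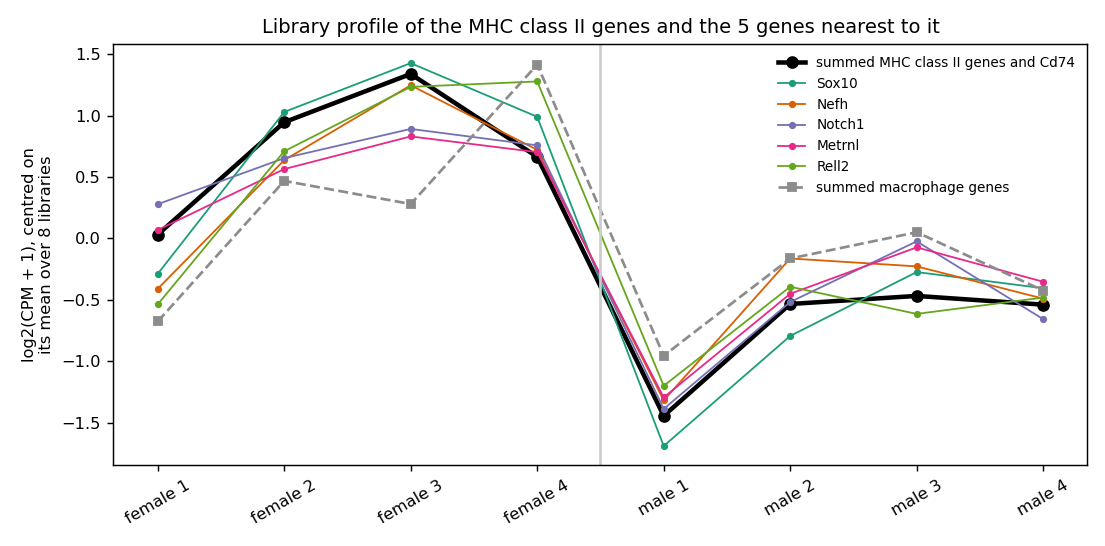
Centred log2(CPM + 1) in each library for the summed class II genes and Cd74 (black), the 5 genes nearest to that profile (colours) and the summed macrophage genes (grey, dashed). The class II profile peaks in female replicate 3 and is lowest in male replicate 1, whereas the macrophage profile peaks in female replicate 4.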

How the data were processed

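Per the labels, reads were aligned with TopHat2 to mouse build mm9 and counted with HTSeq; per the methods of the study, TopHat2 ran with default settings. The deposited values are raw read counts per gene symbol, 1 file per library, and the authors applied no normalization to them. Not given in the sources used here are the versions of these tools, the gene annotation and whether counting used strand. The 5 summary lines of each file were dropped; 57.8 to 60.5% of uniquely aligned reads lay outside features. Depth was 4.80 to 7.33 M gene reads per library.

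Libraries were grouped by the sex in their labels. Counts of all genes were tested in edgeR 4.0.16 by its quasi-likelihood test (R 4.3.3; TMM, default filter of at least 10 reads or its equivalent in 4 libraries, sex as the only term) with Benjamini-Hochberg adjustment over 12518 genes, in a script tested on simulated data. Log2 fold changes are female over male. DESeq2 1.42.0, limma-voom 3.58.1, other scalings, no filter, a replicate block and leaving out each library were the alternatives; sums of marker lists without female replicate 4 were added after seeing the data. Nothing in the labels says that a replicate number is shared between sexes, so it was not used as a pair. The labels do not name the mouse behind a library; the study describes 4 samples of each sex, each with lumbar ganglia of both sides, and libraries were taken as separate mice. Exon lengths came from GENCODE M1 on NCBIM37 (mm9), which held all 189 listed genes; 187 of these were in the files (Ighm and Ly6g were not). Promoters came from RefSeq (GRCm38.p6). Tables and figures were made in Python 3.11.15 (matplotlib 3.10.9, pandas 2.3.3).

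The 10 genes, the 7 lists of related genes and the 10 lists of cell type markers were chosen with earlier results of these data known. Named were all 10 genes, the 3 genes with the smallest p-values and the highest gene per length in each related list, 9 fixed partners, the leading and absent marker of each cell type, and the 5 genes nearest in profile. All other genes in the text, among them the remaining macrophage and granulocyte markers, H2-DMa, H2-DMb1, Ctsh, Tap1 and Lamp2, were chosen after their values were seen.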

Additional observations from a re-analysis of the deposited data

Results flagged for a closer look

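In 126 groups of 4 libraries (a gene or list in one sex), 10 had a library that stood apart, its gap to the nearest other library being a share of the range above Dixon's critical value for 4 samples, where chance gives about 6.3. The class II sum was 3.96 CPM in male replicate 1 and 8.28 to 8.75 CPM in the other males. Ly86 was at 294.6 CPM in female replicate 3 and 447 to 468 CPM in the other females, and so was the macrophage list that it dominates, at 315 against 473 to 493 CPM. Mif was at 77.3 CPM in female replicate 4 and 55.1 to 56.7 CPM in the other females. Cd55 was at 549 CPM in male replicate 1 and 460 to 472 CPM in the other males.

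Female replicate 4 also stood apart for 3 marker lists. Granulocyte and mast cell markers summed to 50.5 CPM there and to 1.10 to 3.12 CPM in the other females, satellite glia markers to 12239 against 9248 to 9643 CPM, and red blood cell markers, all of Alas2, to 3.71 against 0.208 to 0.412 CPM. Male replicate 4 stood apart for endothelial markers, at 7.40 against 3.41 to 4.01 CPM, and for Alas2, at 0.444 against 0.136 to 0.165 CPM, the latter a matter of 3 reads against 1.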

How the results depend on the processing

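The class II sum stayed higher in females under every alternative run, with ratios from 2.34 to 3.57, and the fitted changes of Cd74, H2-Ab1 and H2-Eb1 kept their direction. For all 10 genes, a ratio from mean log2(CPM + 1) was 1.58 in place of 2.82, and for the macrophage genes 1.22 in place of 2.12. Without female replicate 4 the log2 fold change of Lyz2 was 0.56. Of the 4 of the 10 genes that were tested, 0 passed the adjusted threshold in edgeR (0.0879% of all tested genes did) and 1 in DESeq2, and 0 to 2 of the 4 or 5 tested with a library left out. Over all genes, 11 passed it in edgeR, 48 in DESeq2 and 7 (without male replicate 4) to 84 (without female replicate 1) with a library left out. Unadjusted, 889 genes passed, 587 (without male replicate 1) to 1453 (without female replicate 4) with a library left out, and 11 of the related genes, 4 to 19 without the same libraries.

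With the replicate number as a block, 6 genes passed after adjustment. Same-numbered libraries did not deviate together (correlations 0.108, -0.133, 0.161 and 0.0166 over 11445 genes), so the numbers give no pairing.

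Of 462 refits of 33 named genes, 21 reversed a direction, in 8 genes. With a library left out, log2 fold changes ran from -0.034 to 0.0152 for Rfxank (0.0128 with library size alone), -0.70 to 0.067 for Socs1, -0.18 to 0.16 for Jak1, -0.013 to 0.17 for Mif, -0.0437 to 0.18 for B2m, -0.19 to 0.0221 for Cd55, -0.0709 to 0.11 for Serping1 and -0.48 to 0.10 for C1qb. The cause was not tested. Depth limits the genes at 0 to 9 reads, where only large differences could be seen.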
